A study of Mus musculus with 12 samples.

Results

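The mitochondrial respiratory chain was followed through 93 nuclear protein-coding genes, chosen by symbol from the 52636 genes listed for mouse skin (21819 of them protein-coding). The chosen symbols are those of NADH dehydrogenase (Nduf), succinate dehydrogenase (Sdh), the cytochrome bc1 complex (Uqcr), cytochrome c oxidase (Cox4 to Cox8) and ATP synthase (Atp5). They comprise 36 subunits of complex I, 4 of complex II, 8 of complex III, 19 subunits and isoforms of complex IV, 16 of ATP synthase, and 10 assembly or associated factors that share the symbols. Another 13 rows with matching symbols are not protein-coding and were left out. Of the 93 genes, 91 passed the filter on low counts. Cox7b2 and Cox8c, isoforms of complex IV, held no counts in any library.

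Complexes I to IV pass electrons from NADH and succinate to oxygen and pump protons across the inner mitochondrial membrane, and ATP synthase uses the proton gradient to make ATP. Nuclear genes encode most subunits, while mitochondrial DNA (mtDNA) encodes a small set of core subunits. Complex IV has tissue isoforms: Cox6a2, Cox7a1 and Cox8b are the isoforms of skeletal and heart muscle (Cox7a1 and Cox8b are also known from brown fat), and Cox6a1, Cox7a2 and Cox8a are their counterparts in most other tissues. Muscle fibres are rich in mitochondria, and mouse back skin can carry a thin sheet of skeletal muscle, the panniculus carnosus, beneath the fat.

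Skin of BALB/c mice was sequenced in 4 groups of 3 libraries: control mice (control), control mice treated with rapamycin (control + RAPA), mice with a rosacea-like reaction induced by LL37 (LL37), and such mice treated with rapamycin (LL37 + RAPA). LL37 is the active peptide of human cathelicidin, and rapamycin inhibits the kinase complex mTORC1. The model used 8-week-old mice that received 40 µl of LL37 or vehicle by injection into shaved back skin, 2 times a day for 2 days; BALB/c mice received rapamycin into the peritoneum at 4 mg/kg per day, although neither source states the route and dose for the sequenced animals themselves. The comparisons ask how LL37 injection moved the respiratory chain genes and whether rapamycin altered that. Whole skin was sequenced, so fewer cells of a type and less RNA per cell cannot be told apart.

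Libraries held between 15734559 and 23271784 counts, and a floor of 3 counts was treated as the limit of detection. The skeletal muscle list, 35 defining genes such as Acta1 and Ckm of which 33 were tested, took 4.84 to 6.87% of all counts in control and 5.04 to 8.20% in control + RAPA. It took 0.0213 to 0.149% in LL37 and 0.488 to 1.03% in LL37 + RAPA, and Tnnc2, a troponin of fast fibres, was at 0 in all 3 LL37 libraries but held 9 counts or fewer in every other library too. LL37 replicate 3 stood apart from its group, with the highest muscle share of the group and the lowest neutrophil share (0.0344%, against 0.194 and 0.291%). It also held the lowest value of its group in 73 of the 91 respiratory chain genes, so the counts it changes are also given without it. Likewise control + RAPA replicate 2 held the lowest value of its group in 87 of the 91.

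Promoters of 2 muscle isoforms and of the 3 ubiquitous ones are shown first, because the isoforms hold both the largest falls and a rise. RefSeq promoters (GRCm38.p6) were matched for 76 of the 93 genes, 2 of them under a newer symbol, and Cox6a2 is among the 17 without a match. In 60 of the 76, the bases after the RefSeq start lay near the start of a GENCODE transcript of the gene. Each promoter printed below passed this check, but counts over the 76 include entries that did not. The 250 bases before the RefSeq start are printed 5′ to 3′ in the direction of the gene, with matches on either strand in capitals for an E-box (CANNTG, the site class of myogenic factors), the NRF1 core (GCGCATGC), an ESRRA site (TCAAGGTCA), an ETS site (CCGGAAG, as bound by GABPA) and a YY1 site (AAGATGGCG). Cox7a1 lies at chr7:30183921-30184170 (plus strand), Cox8b at chr7:140900447-140900696 (minus strand), Cox7a2 at chr9:79759854-79760103 (minus strand), Cox8a at chr19:7217617-7217866 (minus strand) and Cox6a1 at chr5:115348959-115349208 (minus strand).
Cox7a1: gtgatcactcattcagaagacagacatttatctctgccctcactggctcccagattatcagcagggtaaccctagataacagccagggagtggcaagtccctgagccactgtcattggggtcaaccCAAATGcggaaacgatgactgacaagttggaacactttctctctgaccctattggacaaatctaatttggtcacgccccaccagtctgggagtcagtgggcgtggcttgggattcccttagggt
Cox8b: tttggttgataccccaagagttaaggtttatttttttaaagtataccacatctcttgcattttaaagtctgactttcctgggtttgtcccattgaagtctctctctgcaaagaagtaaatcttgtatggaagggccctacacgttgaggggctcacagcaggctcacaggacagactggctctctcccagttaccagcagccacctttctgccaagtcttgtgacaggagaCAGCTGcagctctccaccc
Cox7a2: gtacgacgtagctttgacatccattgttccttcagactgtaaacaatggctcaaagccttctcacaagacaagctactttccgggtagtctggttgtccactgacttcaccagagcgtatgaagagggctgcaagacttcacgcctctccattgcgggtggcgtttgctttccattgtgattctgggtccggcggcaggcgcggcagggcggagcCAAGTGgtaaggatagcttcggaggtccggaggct
Cox8a: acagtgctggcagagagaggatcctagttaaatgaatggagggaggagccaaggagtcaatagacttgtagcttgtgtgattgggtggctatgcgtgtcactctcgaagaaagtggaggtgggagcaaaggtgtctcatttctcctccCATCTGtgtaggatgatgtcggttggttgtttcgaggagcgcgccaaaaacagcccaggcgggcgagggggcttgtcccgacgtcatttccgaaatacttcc
Cox6a1: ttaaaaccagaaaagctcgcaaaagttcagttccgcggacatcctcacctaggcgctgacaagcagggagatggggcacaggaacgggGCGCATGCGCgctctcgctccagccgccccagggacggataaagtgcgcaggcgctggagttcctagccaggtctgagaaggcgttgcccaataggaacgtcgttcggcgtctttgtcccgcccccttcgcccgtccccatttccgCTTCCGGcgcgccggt

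Of the 2 muscle isoforms shown, Cox7a1 held 4 CpG dinucleotides in this window and Cox8b held 1. The ubiquitous partners Cox7a2, Cox8a and Cox6a1 held 14, 11 and 26. The median was 15 over the 76 respiratory chain promoters and 6 over 27025 genes. Cox7a1, Cox8b, Cox7a2 and Cox8a each held 1 E-box, a motif found in 66.0% of all promoters. Cox6a1 held none, but had the NRF1 core on both strands in 1 overlapping stretch of 10 capitals, and 1 ETS site. Over the 76 promoters, 9 (11.8%) held the NRF1 core, against 2.32% of all genes, and 13 (17.1%) held the ETS site, against 7.05%. The ESRRA site was in 1 of 76 and the YY1 site in none, against 0.366% and 0.607% of all genes. These are letter matches in a fixed window, not measured binding.

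In control skin the levels per length (TPM, transcripts per 1000000) were highest for Cox6a1 at 1315, Cox8b at 1261, Atp5a1 at 1004 and Cox4i1 at 1001. The median TPM was 164 over complex I, 195 over complex II, 385 over complex III, 322 over complex IV, 312 over ATP synthase and 18.6 over the assembly factors. All 93 genes together took 1.36, 1.47 and 1.40% of the counts of the 3 control libraries. They took 1.28, 1.05 and 1.23% in control + RAPA, 0.971, 1.05 and 0.929% in LL37, and 1.02, 0.945 and 0.957% in LL37 + RAPA. Every LL37 and LL37 + RAPA library lay below every control library. Without the 3 muscle isoforms the mean shares were 1.37, 1.16, 0.984 and 0.970% in the same order of groups, so those isoforms took a small part of the sum.

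**Figure D1:**
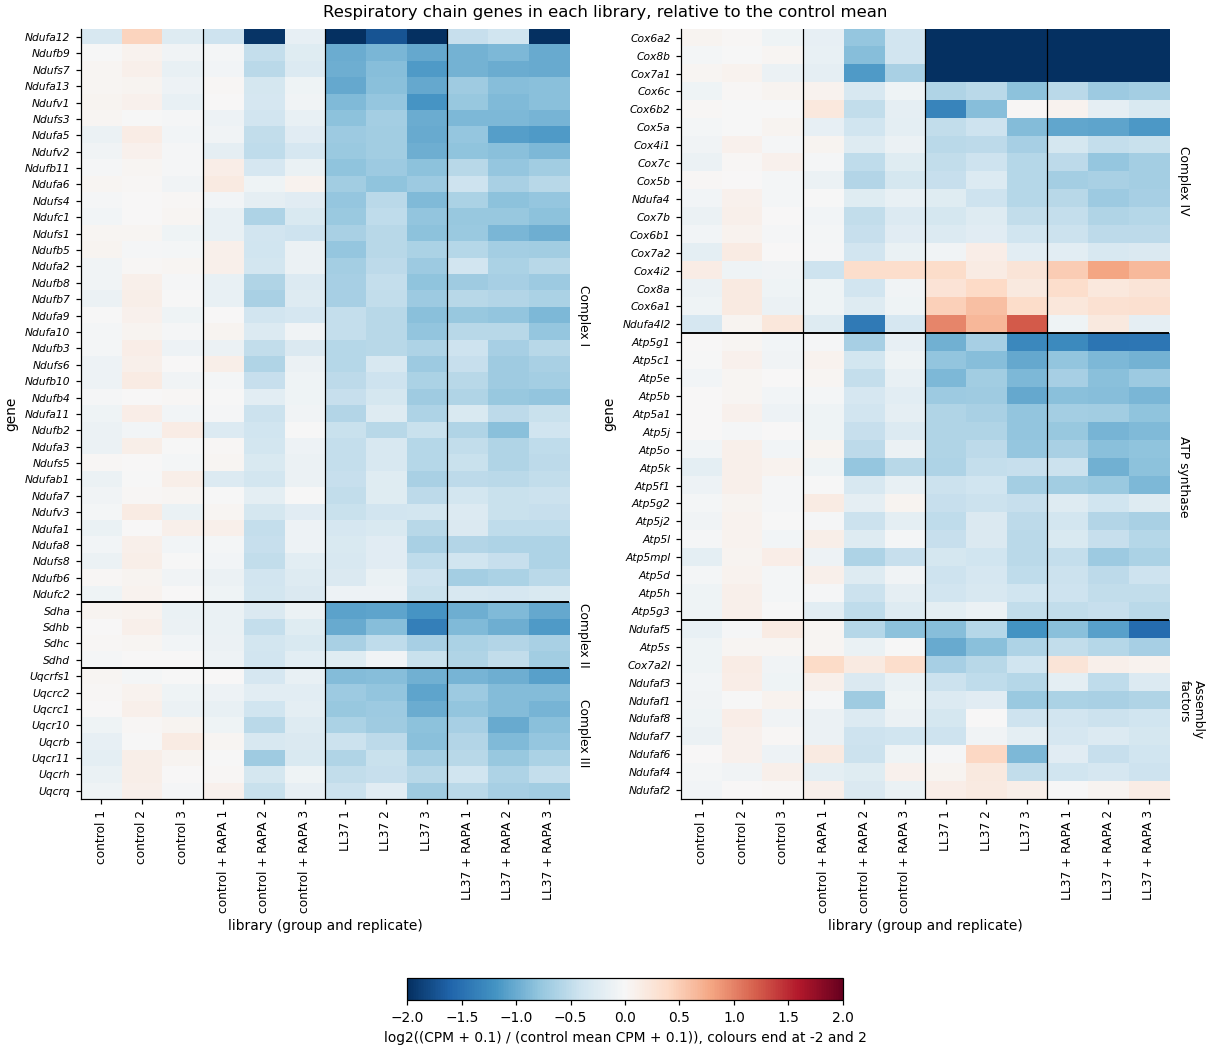
Heatmap of 90 of the 91 tested genes (rows, by complex and by log2 fold change of LL37 vs control) in the 12 libraries (columns). Colour gives log2 of CPM over the control mean, each with 0.1 added, and ends at -2 and 2. LL37 and LL37 + RAPA columns are blue for most genes, the 3 muscle isoforms pass the end of the scale, and Cox6a1, Cox8a and Ndufa4l2 are red in LL37.

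LL37 skin held less mRNA of most respiratory chain genes than control skin. Of the 91 genes tested with the quasi-likelihood test of edgeR at an adjusted p under 0.05, 76 fell and 2 rose, where 21.6% of the 17993 genes tested fell and 21.0% rose. The median log2 fold change of the 91 was -0.57, a level 32.5% lower, against -0.0049 over all genes. With a fold limit added (absolute log2 fold change over 1, a DEG), 6 genes fell and none rose, against 10.8% lower and 8.73% higher among all genes. DESeq2 and an unadjusted p under 0.05 gave no riser past the limit either, while scaling by library size alone gave 1, Ndufa4l2. The genes under the limit were Cox6a2, Cox8b, Cox7a1, Sdha, Sdhb and Ndufa12. Without LL37 replicate 3, 66 fell and 6 were DEGs, with Cox6b2 in place of Sdhb. Without control replicate 3 the count of DEGs was 11 (10 lower), and without LL37 replicate 2 it was 9 (8 lower).

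By complex, the fall took in 35 of 36 genes of complex I (median log2 fold change -0.62), 3 of 4 of complex II (-0.83), 8 of 8 of complex III (-0.66) and 15 of 16 of ATP synthase (-0.51). In complex IV 11 of 17 tested genes fell and 2 rose (-0.43). Within complex I the 7 core subunits, which carry the flavin and the iron-sulfur clusters, all fell with a median of -0.83, and 28 of 29 accessory subunits fell with a median of -0.58. Of the 10 assembly or associated factors, 4 fell (-0.32). Without LL37 replicate 3 the counts of lower genes were 30, 3, 7, 10, 13 and 3 for complexes I to IV, ATP synthase and the factors, and in complex IV Cox8a also rose. Differences between complexes were not tested.

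**Figure D2:**
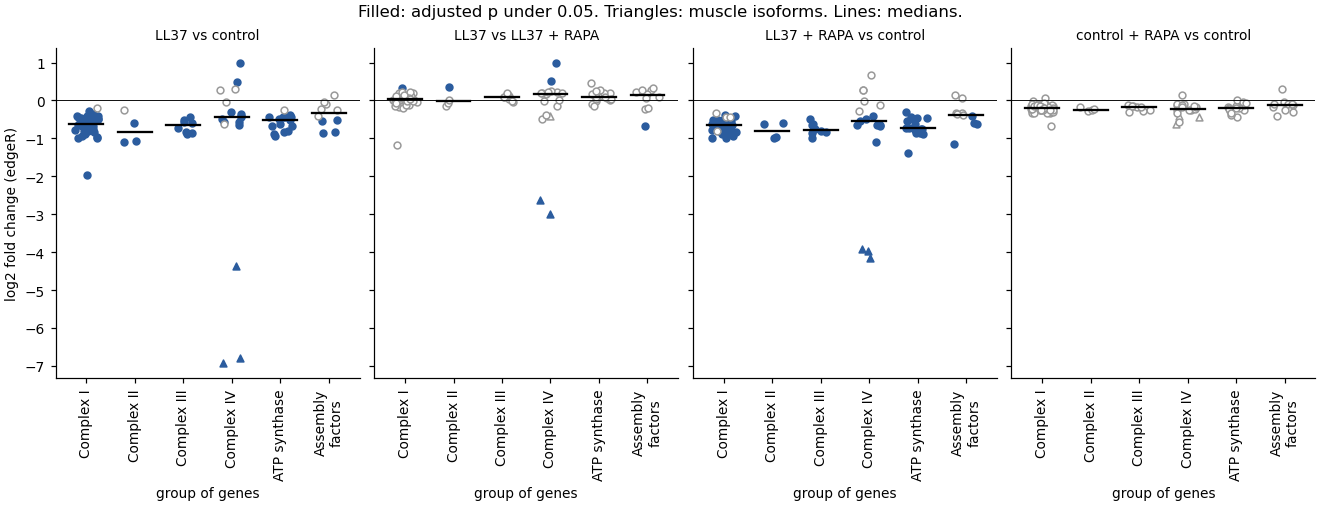
Strip plots of log2 fold change (vertical axis, edgeR) for the tested genes of each complex in 4 comparisons, with filled points at an adjusted p under 0.05, triangles for muscle isoforms and lines at medians. Most points of LL37 vs control and LL37 + RAPA vs control are filled and below 0, while LL37 vs LL37 + RAPA is centred near 0 and no point of control + RAPA vs control is filled.

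In complex I, Ndufv2, a flavoprotein subunit, read 101, 112 and 104 CPM (counts per 1000000, scaled by TMM) in control and 63.0, 65.1 and 53.9 in LL37. The groups did not overlap, and the log2 fold change was -0.80 ± 0.10 (SE; edgeR adjusted p = 1.36e-04). Ndufc2, an accessory subunit of the membrane arm, moved least: 56.7, 63.7 and 60.8 CPM in control against 56.5, 56.0 and 44.5 in LL37. Its log2 fold change of -0.21 ± 0.11 missed the threshold (edgeR adjusted p = 0.150).

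Ndufa12, an accessory subunit, is named after its values were seen because its fold change was the lowest of complex I at -1.97 ± 0.48 (edgeR adjusted p = 0.00633). It read 43.3, 73.7 and 45.5 CPM in control, 12.6, 16.3 and 12.7 in LL37, 40.6, 13.8 and 48.2 in control + RAPA, and 39.3, 41.2 and 13.0 in LL37 + RAPA. Single libraries of both rapamycin groups thus sat at the LL37 level.

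Complex II oxidises succinate and is shared with the TCA cycle. Sdha, its flavoprotein, read 351, 354 and 307 CPM in control and 161, 163 and 149 in LL37 (log2 fold change -1.10 ± 0.09; edgeR adjusted p = 6.69e-06). Sdhb, the iron-sulfur subunit and also named after its values were seen, read 148, 158 and 135 against 73.3, 81.1 and 56.7 (-1.06 ± 0.14; edgeR adjusted p = 1.41e-04). The fold changes of the membrane anchors were nearer 0. Sdhc read 116, 118 and 110 against 73.0, 80.7 and 71.9 (-0.61 ± 0.09; edgeR adjusted p = 2.32e-04), and Sdhd read 93.8, 95.4 and 96.1 against 80.8, 90.6 and 70.0 (-0.24 ± 0.11; edgeR adjusted p = 0.0915).

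In complex III, Uqcrfs1, the Rieske iron-sulfur protein, fell from 189, 179 and 181 CPM to 100, 101 and 93.6 (log2 fold change -0.89 ± 0.09; edgeR adjusted p = 3.48e-05). Uqcrc1, a core protein, fell from 336, 360 and 308 to 197, 202 and 169 (-0.82 ± 0.10; edgeR adjusted p = 1.22e-04). The smallest change of the complex was that of Uqcrq, with 255, 289 and 267 CPM in control and 201, 232 and 165 in LL37 (-0.44 ± 0.15; edgeR adjusted p = 0.0309), a call lost in 4 of 12 refits that left out 1 library (control replicate 2 or 3, LL37 replicate 1 or 3; edgeR adjusted p up to 0.120).

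Of ATP synthase, Atp5b, the catalytic beta subunit, had the highest CPM of the complex. It read 1527, 1556 and 1455 CPM in control and 919, 926 and 741 in LL37 (-0.81 ± 0.12; edgeR adjusted p = 2.63e-04). Atp5c1, the gamma subunit of the rotor, fell from 267, 285 and 256 CPM to 157, 150 and 133 (-0.88 ± 0.12; edgeR adjusted p = 1.43e-04). Subunit c of the rotor ring is encoded by 3 genes with the same mature protein, and their fold changes were not alike in size. Atp5g1 fell by 0.95 ± 0.17 on the log2 scale and Atp5g2 by 0.45 ± 0.09 (edgeR adjusted p = 0.00111 and 0.00251). Atp5g3, at 245, 278 and 258 CPM against 227, 240 and 186, missed the threshold (-0.26 ± 0.11; edgeR adjusted p = 0.0869). The differences between the 3 genes were not tested.

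The largest changes in the whole set were those of the muscle isoforms of complex IV. Cox6a2 (ENSMUSG00000030785, chromosome 7, 128205435 to 128206387, mm10) read 181, 178 and 164 CPM in control and 0.327, 0.429 and 3.30 in LL37. It was 121-fold lower by the fitted log2 fold change of -6.92 ± 0.57 (edgeR adjusted p = 6.40e-06). The LL37 libraries held 6, 7 and 70 counts, so replicate 3 gave most of what remained, and without it the log2 fold change was -8.81. An exon of Cox6a2 overlaps Itgad on the other strand. Cox8b (chromosome 7, 140898945 to 140900446) read 161, 166 and 171 CPM against 0.762, 0.306 and 3.20, a log2 fold change of -6.78 ± 0.56 (edgeR adjusted p = 5.98e-06), or -8.20 without replicate 3. Cox7a1 (chromosome 7, 30184144 to 30186078) read 47.6, 48.5 and 42.6 against 1.74, 2.14 and 2.73 (-4.38 ± 0.29; edgeR adjusted p = 1.46e-06).

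None of the ubiquitous partners was called lower. Cox6a1 (chromosome 5, 115345642 to 115348981) read 317, 385 and 313 CPM in control and rose to 473, 511 and 437 in LL37 (log2 fold change 0.49 ± 0.11; edgeR adjusted p = 0.00348). Cox8a (chromosome 19, 7215153 to 7217616) read 131, 161 and 134 against 171, 188 and 163, groups that did not overlap, but missed the threshold (0.29 ± 0.11; edgeR adjusted p = 0.0574), which it passed with DESeq2 and with library size alone. Cox7a2 (chromosome 9, 79755361 to 79759878) read 71.1, 91.1 and 81.2 against 76.9, 88.5 and 70.0 and the groups overlapped (-0.05 ± 0.12; edgeR adjusted p = 0.779), with a sign that turned under library size alone. The sum of both genes was 513 ± 44.8 CPM in control and 475 ± 35.9 in LL37 for the Cox6a pair, 127 ± 10.9 and 80.7 ± 9.10 for the Cox7a pair, and 308 ± 18.1 and 175 ± 11.7 for the Cox8 pair (SD, n = 3).

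Per length, the muscle isoform made up 34.8 ± 2.40% of the Cox6a pair in control, 50.2 ± 3.40% of the Cox7a pair and 66.9 ± 2.64% of the Cox8 pair (SD, n = 3). In LL37 the shares were 0.310 ± 0.401, 4.79 ± 1.43 and 1.44 ± 1.61%. The log2 ratio of Cox6a2 to Cox6a1 (counts plus 0.5) differed by -8.23 between LL37 and control, with means of -9.18 and -0.95. The ratio of Cox7a1 to Cox7a2 differed by -4.35 and that of Cox8b to Cox8a by -7.75. In all 3 pairs every LL37 library lay below every control library, and each two-sided exact permutation test gave p = 0.1 (0.133 adjusted over 12 tests), the smallest p that 3 against 3 libraries allow.

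**Figure D3:**
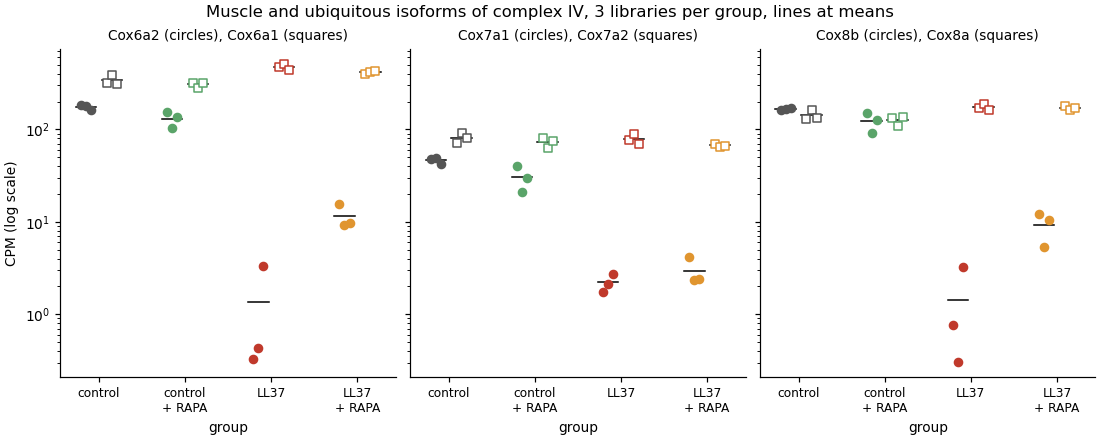
CPM (log axis) of the muscle isoform (circles) and its ubiquitous partner (squares) in each library of the 4 groups, with lines at group means. Circles drop from 164 to 181 CPM in control to 0.327 to 3.30 in LL37 for Cox6a2, while the squares of Cox6a1 lie at 313 CPM or higher in both groups.

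The skeletal muscle list moved with these isoforms. In LL37 vs control 32 of its 33 tested genes fell, with a median log2 fold change of -7.07, and in LL37 vs LL37 + RAPA 30 fell (median -3.79). In LL37 + RAPA vs control 22 fell (median -3.18), beside 21.6, 12.4 and 9.01% of all genes in the same order of comparisons. Without LL37 replicate 3 the counts were 32, 31 and 30, and the first 2 medians moved to -10.3 and -6.77. Myoz1, a protein of the sarcomere's Z line, read 450, 351 and 487 CPM in control, 0.490, 0.858 and 3.53 in LL37 and 41.2, 16.7 and 24.3 in LL37 + RAPA, with LL37 replicate 3 the highest of its group as for Cox6a2. In control + RAPA vs control the list's median was 0.06, while the 3 isoforms had log2 fold changes of -0.42, -0.61 and -0.44 that missed the threshold. The part of muscle RNA in the fall of the other 88 tested genes was not tested. Normalization without the muscle list again gave 76 lower genes. It changes only the scaling and leaves the respiratory chain mRNA of muscle in the counts, so it does not address that part.

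Other members of complex IV with a tissue or condition form are given singly, and differences between them were not tested. Cox4i1, the common form of subunit 4, fell from 543, 604 and 556 CPM to 393, 394 and 360 (log2 fold change -0.57 ± 0.10; edgeR adjusted p = 9.48e-04), and one of its exons overlaps Emc8 on the other strand. Cox4i2, a form known from lung and low oxygen, was low throughout, at 2.59, 2.20 and 2.21 CPM in control and 3.05, 2.64 and 2.83 in LL37 (0.28 ± 0.23; edgeR adjusted p = 0.350). Cox6b2, a form known from testis, read 8.30, 8.15 and 8.11 CPM in control and 3.21, 4.47 and 8.34 in LL37, where replicate 3 alone reached the control level (-0.61 ± 0.30; edgeR adjusted p = 0.124). The common forms Cox6b1 and Cox7b fell by 0.29 ± 0.11 and 0.36 ± 0.11 on the log2 scale (edgeR adjusted p = 0.0399 and 0.0233). Of 12 refits that left out 1 library, 10 lost the call of Cox6b1 and 4 that of Cox7b, with the highest p of both (0.148 and 0.0932) without LL37 replicate 3.

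Ndufa4l2 is a hypoxia-inducible relative of Ndufa4, a subunit of complex IV. It read 60.5, 79.6 and 90.0 CPM in control, 64.4, 28.8 and 61.0 in control + RAPA, 152, 121 and 180 in LL37, and 72.3, 88.2 and 67.5 in LL37 + RAPA. All LL37 libraries lay above all others. It rose in LL37 vs control (log2 fold change 0.98 ± 0.27; edgeR adjusted p = 0.0118) and was higher in LL37 than in LL37 + RAPA (0.99 ± 0.27; edgeR adjusted p = 0.0212). The first call was lost without control replicate 1 (edgeR adjusted p = 0.0572), the second without LL37 replicate 1 or without LL37 + RAPA replicate 1 or 3 (up to 0.0761). Ndufa4 moved the other way, from 201, 221 and 204 CPM in control to 177, 157 and 141 in LL37 (-0.40 ± 0.10; edgeR adjusted p = 0.00833). An exon of Ndufa4l2 overlaps Shmt2 on the other strand.

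Of the 91 genes, 84 did not pass the test between LL37 and LL37 + RAPA. In LL37 vs LL37 + RAPA, 3 of 91 genes were lower and 4 higher in LL37 at an adjusted p under 0.05 (edgeR), where 12.4% of all genes were lower and 11.8% higher. The median log2 fold change was 0.07. The count of higher genes depended on single libraries: it was 11 without LL37 replicate 3, 1 without LL37 replicate 1 or without LL37 + RAPA replicate 1 or 3, and 2 without LL37 replicate 2, while the count of lower genes stayed at 3 or 4. With the fold limit, 2 were lower and none higher, against 5.80% and 4.33% of all genes, and DESeq2 had 1 higher (Ndufa4l2). In LL37 + RAPA vs control 75 genes were lower and none higher (9.01% and 5.03% of all genes), with a median of -0.63. At an unadjusted p under 0.05 edgeR had 3 higher, and DESeq2 had 2 higher after adjustment (Cox6a1 and Cox4i2). With the fold limit 6 were DEGs (4.35% of all genes were lower DEGs), or 11 without control replicate 3 and 10 without LL37 + RAPA replicate 1. By complex, 32 of 36, 4 of 4, 8 of 8, 11 of 17 and 16 of 16 genes of complexes I to IV and ATP synthase were lower, and 4 of 10 factors. LL37 vs control and LL37 + RAPA vs control share their control libraries, so the counts are not independent.

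The genes that were higher in LL37 than in LL37 + RAPA, besides Ndufa4l2, were Cox5a, Sdhd and Ndufb6. Cox5a, a complex IV subunit that contacts the mtDNA-encoded core, read 70.5, 71.6 and 74.9 CPM in control, 51.2, 54.5 and 39.8 in LL37, and 35.3, 34.6 and 32.5 in LL37 + RAPA. The groups did not overlap, and the log2 fold change was -0.58 ± 0.12 in LL37 vs control, 0.51 ± 0.12 in LL37 vs LL37 + RAPA and -1.08 ± 0.12 in LL37 + RAPA vs control (edgeR adjusted p = 0.00208, 0.0109 and 1.17e-04). Sdhd read 62.6, 67.8 and 58.5 CPM and Ndufb6, an accessory subunit of complex I, 40.5, 42.0 and 44.4 in LL37 + RAPA. They were 0.35 ± 0.11 and 0.34 ± 0.10 higher in LL37 on the log2 scale (edgeR adjusted p = 0.0341 and 0.0300), calls that were lost in 6 and 5 of the 12 refits that left out 1 library (up to 0.122 and 0.109). Atp5g1 also had its lowest values in LL37 + RAPA, at 50.6, 44.4 and 45.0 CPM against 63.3, 77.6 and 50.2 in LL37, but the groups overlapped and the difference missed the threshold (0.45 ± 0.17; edgeR adjusted p = 0.0768).

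Both muscle isoforms Cox6a2 and Cox8b were lower in LL37 than in LL37 + RAPA. Cox6a2 read 15.7, 9.17 and 9.60 CPM in LL37 + RAPA (log2 fold change of LL37 vs LL37 + RAPA -3.00 ± 0.54; edgeR adjusted p = 0.00386), and Cox8b read 12.1, 5.36 and 10.5 (-2.62 ± 0.53; edgeR adjusted p = 0.00608). Without LL37 replicate 3 these were -4.91 and -4.07. Cox7a1 read 4.13, 2.37 and 2.39 CPM, which overlapped LL37 (-0.41 ± 0.30; edgeR adjusted p = 0.340). Against control, all 3 stayed 15.2-fold (Cox6a2), 17.9-fold (Cox8b) and 15.6-fold (Cox7a1) lower in LL37 + RAPA. The muscle isoform made up 2.80 ± 0.956, 7.16 ± 1.98 and 8.43 ± 2.70% of its pair per length for Cox6a, Cox7a and Cox8 (SD, n = 3). The ratio of Cox6a2 to Cox6a1 differed by -3.97 and that of Cox8b to Cox8a by -3.24 between LL37 and LL37 + RAPA (exact permutation p = 0.1 each, 0.133 adjusted), and that of Cox7a1 to Cox7a2 by -0.61 (exact permutation p = 0.3).

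The third gene that was lower in LL37 than in LL37 + RAPA was Cox7a2l, a factor that joins complexes III and IV into supercomplexes. It read 162, 191 and 164 CPM in control, 225, 195 and 219 in control + RAPA, 109, 118 and 131 in LL37, and 207, 184 and 180 in LL37 + RAPA. The LL37 libraries lay below all others. Its log2 fold change was -0.53 ± 0.10 in LL37 vs control, -0.67 ± 0.10 in LL37 vs LL37 + RAPA and 0.14 ± 0.10 in LL37 + RAPA vs control (edgeR adjusted p = 0.00187, 0.00210 and 0.424).

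In control + RAPA vs control 0 of the 91 genes passed the adjusted threshold with edgeR or with DESeq2, and edgeR called 0.00% of all genes lower and 0.00% higher. The values leaned one way: 87 of 91 genes had a log2 fold change below 0, with a median of -0.19. Among all genes 9183 of 17993 were below 0, with a median of -0.0055. At an unadjusted p under 0.05 edgeR held 23 of the 91 (25.3%), against 8.65% of all genes. This count depended on single libraries: without control + RAPA replicate 2 it was 4, without control + RAPA replicate 1 it was 48, and the median was -0.11 and -0.31. Leaving out control replicate 2 gave 9. The smallest p values were those of Ndufv2 (-0.34 ± 0.10; edgeR adjusted p = 0.449) and Sdhc (-0.26 ± 0.09; edgeR adjusted p = 0.470).

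The interaction asks whether rapamycin moved a gene differently in LL37 skin than in control skin. It was positive for Cox6a2 at 3.41 ± 0.68 and for Cox8b at 3.06 ± 0.67 on the log2 scale (edgeR adjusted p = 0.0293 and 0.0363), the 2 of 91 genes past the threshold. Of all genes 2.15% were higher by that test, 1.73% with the fold limit, and 1.13% were lower. At an unadjusted p under 0.05 the test held 6 of the 91 genes (6.59%), against 22.5% of all genes. Cox7a1 had an interaction of 1.02 ± 0.39 (edgeR adjusted p = 0.150). The adjusted p of Cox6a2 ranged from 5.19e-05 to 0.0840 when single libraries were left out, and that of Cox8b from 3.96e-04 to 0.1002, with the lowest p of both without LL37 replicate 3. Leaving out 1 library took the adjusted p past 0.05 in 8 of 12 cases for Cox6a2 and 9 of 12 for Cox8b. The calls over all genes depended on single libraries too. The main fit held 429 interaction DEGs among all genes. There were 2 without LL37 + RAPA replicate 1, 17 without control + RAPA replicate 3, 23 without control replicate 1 and 1760 without LL37 replicate 3.

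The mtDNA-encoded subunits, 13 genes transcribed inside the mitochondrion and outside the chosen set, were also lower in LL37 than in control. Of these, 12 fell at an adjusted p under 0.05 (9 of them DEGs), beside 21.6% of all genes (10.8% as DEGs). Their median log2 fold change was -1.13. In LL37 vs LL37 + RAPA 5 were lower in LL37, beside 12.4% of all genes, and the median was -0.34, while the nuclear median was 0.07. Their share of all counts was 2.51, 2.45 and 2.58% in control, 1.20, 1.29 and 1.28% in LL37, and 1.81, 1.48 and 1.64% in LL37 + RAPA. So the LL37 + RAPA libraries lay between the other groups, with no overlap. mt-Nd2, a complex I core subunit, read a mean of 1779 CPM in control, 724 in LL37 and 897 in LL37 + RAPA (LL37 vs control -1.30 ± 0.11; edgeR adjusted p = 6.33e-06). mt-Co3, of complex IV, read 66.2, 30.2 and 39.8 (-1.13 ± 0.09; edgeR adjusted p = 5.43e-06) and was lower in LL37 than in LL37 + RAPA (-0.40 ± 0.09; edgeR adjusted p = 0.0103), as was mt-Nd5 (-0.34 ± 0.10; edgeR adjusted p = 0.0343).

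**Figure D4:**
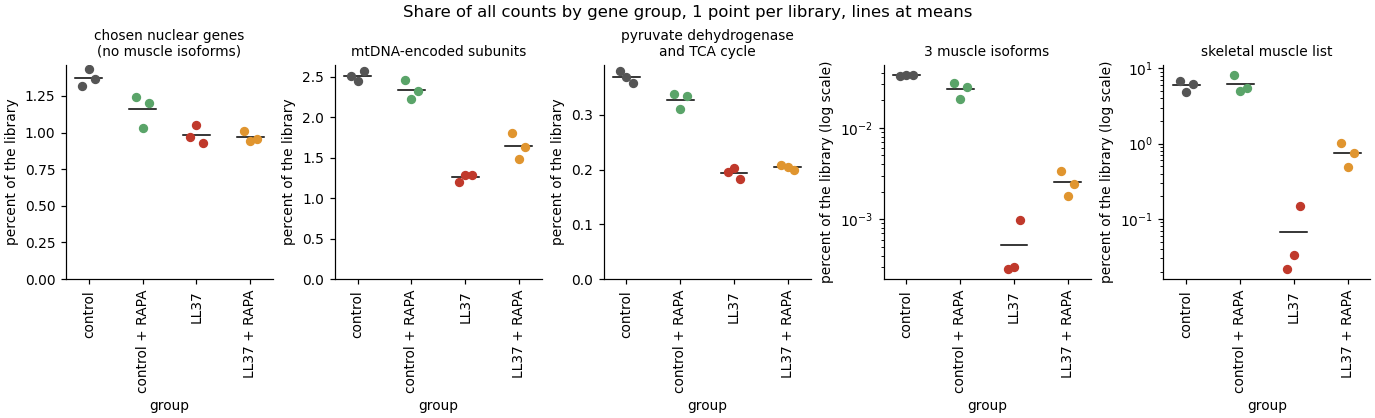
Percent of all counts taken by 5 gene groups in each library, with lines at group means and log axes for the 3 muscle isoforms and the skeletal muscle list. The chosen nuclear genes without muscle isoforms have means of 0.984% in LL37 and 0.970% in LL37 + RAPA, while mtDNA-encoded subunits and the muscle list are higher in each LL37 + RAPA library than in any LL37 library.

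The enzymes that feed the chain fell too. Of 18 genes of pyruvate dehydrogenase and the TCA cycle 17 fell in LL37 vs control (8 DEGs, median log2 fold change -0.93), beside 21.6% of all genes (10.8% as DEGs). In LL37 + RAPA vs control 17 were lower, beside 9.01%. In LL37 vs LL37 + RAPA 0 passed with edgeR, beside 12.4% lower and 11.8% higher of all genes. There were 0 also at an unadjusted p under 0.05 and with DESeq2 (1 lower and 1 higher without LL37 replicate 3). Ogdh, a subunit of the oxoglutarate dehydrogenase complex, and Sucla2, of succinyl-CoA synthetase, fell by 1.22 ± 0.09 and 1.19 ± 0.08 on the log2 scale.

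Among 13 electron carriers and adenine nucleotide exchange genes 8 fell and 1 rose in LL37 vs control, beside 21.6% and 21.0% of all genes. Among them a muscle and a general form moved in opposite directions. Slc25a4, the adenine nucleotide translocase of muscle, read 1164, 1113 and 1006 CPM in control and 110, 147 and 121 in LL37 (-3.12 ± 0.17; edgeR adjusted p = 5.36e-07). Slc25a5, the translocase of dividing cells, is named after its values were seen: it read 218, 337 and 281 CPM against 433, 411 and 370 and rose (0.54 ± 0.14; edgeR adjusted p = 0.00745). Ckmt2, the creatine kinase of muscle mitochondria, read 157, 136 and 112 CPM against 0, 0 and 0.848, a fall (edgeR adjusted p = 9.48e-06) whose fitted size rests on the 18 counts of LL37 replicate 3 and is not given, and Vdac1, a channel of the outer membrane, fell by 0.99 ± 0.11 on the log2 scale. In LL37 vs LL37 + RAPA 3 of the 13 were lower and 1 higher (2 and 3 without LL37 replicate 3), beside 12.4% and 11.8% of all genes. In LL37 + RAPA vs control 10 were lower, beside 9.01%.

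Of 39 tested assembly factors outside the chosen symbols, 15 fell in LL37 vs control (21.6% of all genes fell) with a median of -0.24, among them Ecsit (-0.89 ± 0.12), Uqcc1 (-0.79 ± 0.10) and Cox19 (-0.67 ± 0.09). In LL37 vs LL37 + RAPA 2 of the 39 were lower and 1 higher (2 and 5 without LL37 replicate 3), beside 12.4% and 11.8% of all genes. In LL37 + RAPA vs control 11 were lower, beside 9.01%. Of 19 regulators of mitochondrial biogenesis 7 fell and 3 rose in LL37 vs control, beside 21.6% and 21.0% of all genes. Of the 19, 1 was lower and 2 higher in LL37 vs LL37 + RAPA, beside 12.4% and 11.8% of all genes (2 and 3 without LL37 replicate 3), and 6 were lower in LL37 + RAPA vs control, beside 9.01%. Ppargc1a, the coactivator PGC-1alpha, read 8.68, 7.38 and 18.1 CPM in control, 0.272, 0.0613 and 0.707 in LL37 and 1.04, 0.655 and 1.17 in LL37 + RAPA (LL37 vs control -4.93 ± 0.57; edgeR adjusted p = 6.39e-05; -5.96 without LL37 replicate 3). Esrrb and Esrrg, estrogen-related receptors, were low in control (means of 1.84 and 1.32 CPM) and fell by 4.96 ± 0.79 and 4.97 ± 0.77 on the log2 scale (-5.69 and -4.34 without LL37 replicate 3).

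Markers of other cell types moved in the same comparisons. In LL37 vs control 10 of 12 adipocyte genes fell, beside 21.6% of all genes, and all 12 were lower in LL37 than in LL37 + RAPA, beside 12.4%. The list's share of counts was 0.372 to 0.400% in LL37 + RAPA, against 0.0648 to 0.126% in LL37 and 0.204 to 0.346% in control. Of 7 tested brown adipocyte genes 4 fell and 1 rose in LL37 vs control, beside 21.6% and 21.0% of all genes. The falls included Ppargc1a and Cpt1b, both also of muscle, while Dio2 rose (log2 fold change 1.11). Ucp1, the defining gene, was not above 0.522 CPM in any library. Of 8 tested neutrophil genes 8 rose in LL37 vs control (median log2 fold change 5.05) and of 10 macrophage genes 9 rose (0.96), beside 21.0% of all genes. In LL37 vs LL37 + RAPA 3 and 6 of these were higher in LL37, beside 11.8% of all genes. Without LL37 replicate 3 the counts were 8 of 10 tested neutrophil and 3 macrophage genes. Of 10 keratinocyte genes 3 rose and 1 fell in LL37 vs control, beside 21.0% and 21.6% of all genes, with Krt14 up by 1.12 ± 0.19 and Krt15 down at -1.06 ± 0.23. Of 8 smooth muscle genes 3 fell in LL37 vs control, beside 21.6% of all genes. They included Des (-4.61 ± 0.44), which skeletal muscle shares, and Lmod1 (-2.47 ± 0.24). The part of these cell types in the changes of the respiratory chain genes was not tested.

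As the files hold gene totals, 2 limits bear on single genes. Exons of 3 chosen genes (Atp5g2, Ndufb2 and Ndufb8) overlap another gene on the same strand and those of 28 do so on the other strand only, and neither the strand setting nor the treatment of reads shared with processed pseudogenes is given in the sources used here.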

How the data were processed

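RNA sequencing of BALB/c mouse skin gave 12 libraries, 3 in each of 4 groups taken from the labels. The authors deposited raw read counts per Ensembl gene in 1 table, without normalization and without pooling replicates. The study's methods name HTSeq 0.6.0 for counting, while the submitters' processing notes list HISAT2 2.0.5, StringTie 1.3.3b, featureCounts 1.5.0-p3, DESeq2 1.16.1 and mm10 with no roles, so the counter behind the table is not settled. Multi-mapped reads and strand were handled in a way not given in the sources used here, which can move counts between a gene and its pseudogenes or antisense partners.

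Symbols, biotypes, positions and union exon lengths came from GENCODE on GRCm38, the same build, and 52403 of 52636 identifiers had a symbol. Respiratory chain genes were found by their symbols. These genes, the 12 lists of other genes and the rule for named genes were chosen with earlier results of these data known. The rule named the muscle and ubiquitous isoforms of complex IV, other isoform pairs and subunit c genes, in each complex the gene with the highest CPM, the smallest p and the fold change nearest 0 in LL37 vs control, every called gene that was higher in LL37, the 2 genes with the smallest p in control + RAPA vs control and in the interaction, and the 3 genes with the smallest p of each list. Genes given with values outside it are marked as such, apart from Tnnc2, Atp5a1 and Ucp1. Values of 2 genes that the rule names are not reported here, although counts and medians include them.

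In R 4.3.3, edgeR 4.0.16 fitted the 12 libraries in 1 model with its quasi-likelihood F-test. Library sizes were scaled by TMM, low genes were removed with filterByExpr, and p-values were adjusted by Benjamini-Hochberg over the 17993 genes left. SE is the absolute log2 fold change over the square root of F. A DEG had an adjusted p under 0.05 and an absolute log2 fold change over 1, and calls without the fold limit are given beside it. The labels do not say how the replicates of a group relate, but the study describes its mouse sequencing as 3 independent biological samples per group. The p-values measure the spread between these samples. Isoform ratios used counts plus 0.5 and a two-sided exact permutation test. Depth was 15734559 to 23271784 counts per library, with a floor of 3 counts, and covers counting error only. Calls were tested on simulated data.

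The alternatives were other scalings (DESeq2 size factors, library size only, normalization without the skeletal muscle list), filters of 1 count in total or 10 counts in every library, DESeq2 1.42.0, no fold limit, separate fits for each pair of groups, a block for replicate number, and fits that each dropped 1 library. Counts at an unadjusted p in control + RAPA vs control, and counts by complex and list without LL37 replicate 3, were added after seeing the data.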

Additional observations from a re-analysis of the deposited data

Results flagged for a closer look

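Cox6a2 and Cox8b, muscle isoforms of complex IV, are given here because rapamycin moved them differently in LL37 skin and in control skin by a test of the difference itself. The interaction on the log2 scale was 3.41 for Cox6a2 and 3.06 for Cox8b (edgeR adjusted p = 0.0293 and 0.0363). In control skin their log2 fold changes under rapamycin were -0.42 and -0.44, with control + RAPA libraries at 102 to 156 and 91.5 to 150 CPM. In LL37 skin rapamycin went with levels of 9.17 to 15.7 and 5.36 to 12.1 CPM, above all LL37 libraries. The call was lost in 8 of 12 refits that left out 1 library for Cox6a2 and in 9 of 12 for Cox8b (edgeR adjusted p up to 0.0840 and 0.1002). Interaction DEGs among all genes numbered 2 to 1760 over the same refits. Over these refits the interaction ranged from 2.95 to 5.32 for Cox6a2 and from 2.62 to 4.51 for Cox8b, with the highest values without LL37 replicate 3. The skeletal muscle list moved in the same direction, from 0.0213 to 0.149% of counts in LL37 to 0.488 to 1.03% in LL37 + RAPA. Its own median interaction was 3.73, above the values of both isoforms. Of its 33 tested genes 7 were higher at an adjusted p under 0.05 (edgeR), beside 2.15% of all genes. Without LL37 replicate 3 the list's median was 6.58 and 30 were higher. That refit also called more of all genes. By the interaction 1760 of 18396 genes were DEGs in either direction, against 429 of 17993 in the main fit. The part of the muscle list in the values of Cox6a2 and Cox8b was not tested.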

How the results depend on the processing

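In LL37 vs control 64 to 78 genes fell at an adjusted p under 0.05 when single libraries were left out, and 68 to 76 under the other alternatives. In LL37 + RAPA vs control the ranges were 56 to 77 and 67 to 79. With the fold limit, LL37 vs control gave 6 to 11 DEGs over the libraries left out (11 without control replicate 3 and 9 without LL37 replicate 2) and 78 with no fold limit. LL37 vs LL37 + RAPA gave 2 to 3 over the libraries left out, 7 with no fold limit, 4 with DESeq2, 1 in a fit of the compared groups only, where Cox8b lost its call, and 0 under a filter of 10 counts in every library, which leaves the muscle isoforms Cox6a2 and Cox8b untested. LL37 + RAPA vs control gave 5 to 11 DEGs (11 without control replicate 3, 10 without LL37 + RAPA replicate 1), 75 with no fold limit and 10 with normalization without the skeletal muscle list. At an adjusted p alone, LL37 vs LL37 + RAPA gave 1 to 11 higher genes over the libraries left out, and 2 both when each pair of groups was fitted separately and with a filter of 1 count in total. The cause was not tested where none is named.

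The interaction depended on single libraries: 0 to 3 genes over the libraries left out (3 without LL37 replicate 3, and 0 without control replicate 1 or 3, any control + RAPA library, LL37 replicate 1, or LL37 + RAPA replicate 1 or 3), 0 under the filter of 10 counts in every library, for the same reason, and 1 with the replicate number as a block. Over all genes the interaction gave 2 to 1760 DEGs over the libraries left out, against 429 in the main fit. Of 18 same-numbered pairs of samples 4 had deviations correlated above 0.1 (range -0.188 to 0.263). With so few samples this check cannot tell whether same-numbered samples are related. The replicate block moved no other count of DEGs by over 1.5 times. Library size alone moved the median log2 fold change of all genes to 0.13 in LL37 + RAPA vs control, where 67 genes were lower, and to 0.11 in the interaction. Cox7a2 had no stable direction in LL37 vs control, at 0.037 with library size alone and -0.14 to 0.055 with single libraries left out. In all, 98 fold changes of named genes were refitted 1943 times; 1836 kept direction and call, 96 lost the call, 8 gained it and 3 changed sign, all of these for Cox7a2. Isoform ratios kept their direction in each alternative run. Depth limits Cox6a2, Cox8b and Ckmt2 in LL37, which rest on few counts.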
